A study of Mus musculus with 40 samples.

Results

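The promoter p65 loci are the places where p65, a subunit of the transcription factor NF-kB, was found by ChIP-Seq close to a transcription start in mouse macrophages given Kdo2-lipid A (KLA). Peaks of the 4 p65 lists were merged where they overlapped by at least 1 bp, a locus was kept when it held a peak in all 4 lists, and it was called a promoter locus when its centre lay within 1 kb of the 5' end of any transcript in the expression table. This gave 4625 promoter loci, 12.6% of the 36849 loci found in all 4 lists and part of 78779 merged loci in any list. The other 32224 loci of all 4 lists lie farther from a start and are called distal. The promoter loci lie at 4588 genes, 20.1% of the 22865 genes with a symbol, and 4127 loci have 1 such gene, 489 have 2 and 9 have 3 or more. The members were chosen by their p65 peaks, so their p65 tags are given as a description with no test.

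The cells were adherent peritoneal macrophages of C57BL6/J and BALBc/J mice, elicited by thioglycollate injected 4 days earlier. They received fresh medium with KLA (100 ng/ml), an agonist of Toll-like receptor 4, for 1 hr or, in RNA-Seq only, for 4 hr, or fresh medium alone. p65 was measured only after KLA, in 2 lists per strain, and PU.1, C/EBPa, H3K4me2, H3K27Ac and nascent RNA (GRO-Seq) in 1 library per strain and treatment, so the strains serve as the 2 replicates of every KLA contrast. No label states that each library is a separate animal. A p-value here thus speaks of the spread among these libraries, part of which may be technical. The test used (limma) also estimates the spread of each gene or locus partly from the others. GRO-Seq and each tested factor or mark have 4 libraries. There, standard errors (SE) and p-values rest largely on that shared estimate and do not measure the own spread of a gene or locus. The p65 libraries held 10.0 to 14.4 M (mega) tags, the other ChIP libraries 7.10 to 11.8 M, RNA-Seq 17.0 to 20.3 M and GRO-Seq 39.4 to 48.3 M. All 7 macrophage markers examined were expressed, with 76352 to 105353 summed RNA-Seq tags per library (tags per 10 M, the unit of all tag values here), whereas the 5 T and NK cell markers summed to 0 to 4.32 tags and the 3 erythroid markers to 0 to 1.77. B cell, neutrophil, mast cell and eosinophil markers summed to 36.5 to 70.7, 78.0 to 341, 17.8 to 65.9 and 51.8 to 88.9 tags, and the 6 mesothelial and fibroblast markers to 1257 to 2986. Their part in the results was not tested. In such bulk samples, fewer cells of a type and less RNA per cell cannot be told apart.

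NF-kB dimers wait in the cytoplasm bound to inhibitors of the IkB family. Signals such as lipid A from bacteria lead to the destruction of these inhibitors, and p65 then enters the nucleus, binds κB sites and helps to recruit the transcription machinery at inflammatory genes. PU.1 and C/EBP proteins mark the regulatory DNA of macrophages before a stimulus, H3K4me2 lies at promoters and enhancers, and H3K27Ac lies at those that are active.

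The promoter windows of 8 member genes that rose most at 1 hr are given here as sequence. They run from 250 bases before the transcription start to 50 bases from it, come from RefSeq on build GRCm38.p6, and are written 5′ to 3′ on the strand of the gene. Capitals mark every match to the κB pattern, which is GGG, 3 bases of any kind and TTCC, on either strand, and adjoining matches overlap. Positions count from 0 at the first transcribed base. They were chosen by rank of the RNA-Seq rise among the named members with a window.
Cxcl2 (chr5:90903649-90903948, plus strand): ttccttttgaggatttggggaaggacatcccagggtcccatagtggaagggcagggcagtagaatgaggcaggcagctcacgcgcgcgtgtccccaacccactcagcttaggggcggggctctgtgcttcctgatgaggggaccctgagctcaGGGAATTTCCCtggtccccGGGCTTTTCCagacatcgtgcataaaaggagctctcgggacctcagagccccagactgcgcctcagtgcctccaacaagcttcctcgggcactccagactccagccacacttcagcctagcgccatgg
Cxcl1 (chr5:90890995-90891294, plus strand): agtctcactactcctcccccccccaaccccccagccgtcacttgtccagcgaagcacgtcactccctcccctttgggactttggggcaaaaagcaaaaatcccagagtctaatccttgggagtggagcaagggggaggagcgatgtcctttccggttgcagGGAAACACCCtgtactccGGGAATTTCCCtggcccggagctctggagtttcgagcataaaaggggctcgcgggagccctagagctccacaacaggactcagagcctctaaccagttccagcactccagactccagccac
Tnf (chr17:35201958-35202257, minus strand): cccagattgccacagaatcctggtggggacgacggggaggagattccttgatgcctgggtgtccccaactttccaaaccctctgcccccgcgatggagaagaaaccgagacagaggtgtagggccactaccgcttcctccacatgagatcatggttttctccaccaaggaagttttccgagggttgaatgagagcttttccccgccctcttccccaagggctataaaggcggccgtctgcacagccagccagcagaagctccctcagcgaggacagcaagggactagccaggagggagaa
Nfkbia (chr12:55492598-55492897, minus strand): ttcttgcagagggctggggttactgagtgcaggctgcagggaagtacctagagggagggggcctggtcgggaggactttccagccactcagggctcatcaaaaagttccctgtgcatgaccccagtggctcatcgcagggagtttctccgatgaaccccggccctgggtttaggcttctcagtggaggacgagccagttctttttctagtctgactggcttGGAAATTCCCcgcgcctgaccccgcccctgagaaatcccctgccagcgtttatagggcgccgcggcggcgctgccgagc
Il1b (chr2:129371090-129371389, minus strand): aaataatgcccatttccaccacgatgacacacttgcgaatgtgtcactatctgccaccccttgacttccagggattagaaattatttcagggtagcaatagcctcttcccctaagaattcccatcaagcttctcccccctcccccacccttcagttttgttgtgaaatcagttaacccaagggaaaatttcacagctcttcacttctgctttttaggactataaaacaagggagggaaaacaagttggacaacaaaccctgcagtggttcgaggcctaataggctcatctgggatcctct
Ifnb1 (chr4:88522745-88523044, minus strand): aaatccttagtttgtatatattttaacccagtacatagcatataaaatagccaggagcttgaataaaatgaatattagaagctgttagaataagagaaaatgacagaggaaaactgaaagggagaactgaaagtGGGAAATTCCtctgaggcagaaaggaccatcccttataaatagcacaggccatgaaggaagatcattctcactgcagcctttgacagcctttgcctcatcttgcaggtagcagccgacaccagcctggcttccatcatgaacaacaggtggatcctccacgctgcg
Il1a (chr2:129309923-129310222, minus strand): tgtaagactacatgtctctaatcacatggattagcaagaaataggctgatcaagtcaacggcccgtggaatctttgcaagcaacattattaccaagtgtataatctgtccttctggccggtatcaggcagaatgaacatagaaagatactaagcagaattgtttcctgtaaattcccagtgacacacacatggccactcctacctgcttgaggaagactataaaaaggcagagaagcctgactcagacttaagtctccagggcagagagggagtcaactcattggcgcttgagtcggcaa
Olr1 (chr6:129507116-129507415, minus strand): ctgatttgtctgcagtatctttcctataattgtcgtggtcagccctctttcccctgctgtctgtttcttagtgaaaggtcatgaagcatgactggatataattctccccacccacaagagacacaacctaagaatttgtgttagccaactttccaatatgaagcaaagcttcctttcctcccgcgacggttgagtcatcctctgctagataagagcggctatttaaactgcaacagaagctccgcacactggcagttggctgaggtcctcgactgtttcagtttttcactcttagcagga

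Of these 8 windows, those of Cxcl2, Cxcl1, Nfkbia and Ifnb1 hold the pattern, and those of Tnf, Il1b, Il1a and Olr1 do not. In Cxcl2, the gene of a neutrophil-attracting chemokine, 3 matches lie between -97 and -69, and the centre of the p65 locus is 119 bp upstream of the start in the coordinates of the peak lists. Its neighbour and relative Cxcl1 has 3 matches between -89 and -61, with the locus centre 106.5 bp upstream. The match of Nfkbia, which encodes the inhibitor IkB alpha, lies at -29 to -20, and that of Ifnb1, the interferon beta gene, at -116 to -107. A match is a description of letters, and its absence says only that these letters are not in this window: the Tnf window holds 2 matches to a looser pattern (GGG, 5 bases of any kind and CC) and the Olr1 window none, although Olr1 carried the most p65 tags of all promoter loci.

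p65 at promoters was concentrated just upstream of the start. The median centre lay 67 bp upstream, 65.8% of the loci were centred upstream of their nearest start, and 1159 of 4625 loci (25.1%) were centred in the first 100 bp before it. A further 678 lay 100 to 200 bp upstream and 403 in the first 100 bp downstream. Only 94 and 81 loci were centred 100 to 200 and 200 to 300 bp downstream, against 164 at 400 to 500 bp, so the density dropped behind the start and then stood higher again. Loci were 226 bp wide at the median, and 516 genes had more than 1 promoter locus, up to 4.

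**Figure D1:**
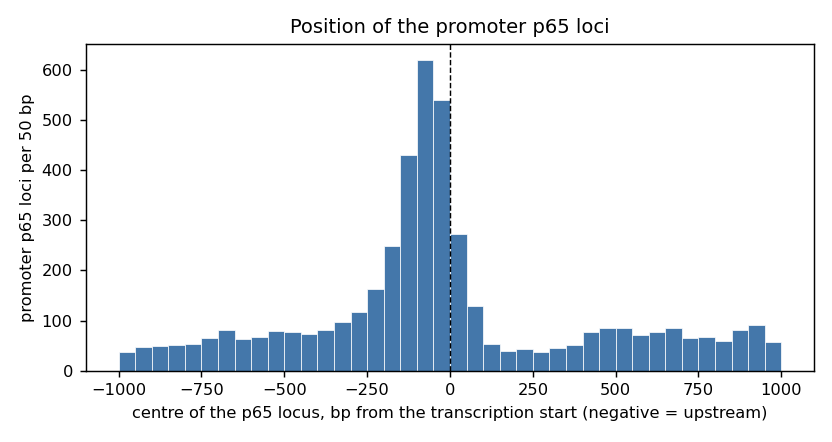
Number of promoter p65 loci per 50 bp, by the distance of the locus centre from the nearest transcription start (x axis, bp, negative upstream); the dashed line marks the start. The loci pile up just upstream, with a median of -67 bp, and are sparse from 100 to 300 bp downstream.

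By the p65 signal, promoter loci were a little lower than distal loci. The mean over the 4 lists had a median of 56.6 tags per 10 M at promoter loci and 62.6 at distal loci. Promoter loci ranged up to 1371 tags, with quartile limits at 34.0 and 106 tags, and 10% exceeded 215. They supplied only 4 of the 100 loci and 94 of the 1000 loci with the most tags. List by list, the promoter median was 59.8 and 68.7 tags in C57BL6/J replicates 1 and 2 and 49.0 and 45.1 in BALBc/J replicates 1 and 2, while the distal median was 69.6 and 67.9 in C57BL6/J and 61.0 and 46.7 in BALBc/J. The C57BL6/J lists were thus the higher ones. Per the file headers, the peaks of both BALBc/J lists were found relative to an input of C57BL6/J, and the part of this in the strain difference was not tested. Across the 4625 loci, log2 tags correlated at r = 0.938 and 0.936 between strains within a replicate number and at r = 0.926 and 0.919 between replicates within a strain. The loci share 4 libraries, so these values describe the lists only.

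The promoter with the most p65 was that of Olr1, which encodes the scavenger receptor LOX-1 (chr6:129457194-129457400 on mm9, centred 114 bp upstream). It held 1084 and 1605 tags in the C57BL6/J lists and 1295 and 1498 in the BALBc/J lists. The next were 3 genes of NF-kB feedback. Nfkbia (chr12:56593619-56593860) held 1128 and 1647 tags in C57BL6/J and 1122 and 1227 in BALBc/J. Tnfaip3, the gene of the ubiquitin-editing inhibitor A20, held 1016 and 1562 tags in C57BL6/J and 1098 and 1416 in BALBc/J. Nfkbiz, the gene of the nuclear coregulator IkB zeta, held 896 and 1248 tags in C57BL6/J and 1002 and 1007 in BALBc/J. In all 4 genes the strains overlapped and C57BL6/J replicate 2 was the highest list. Malt1 (a signalling protease), Slfn2 (a Schlafen protein of T cell quiescence), Tgm2 (a transglutaminase), Cxcl10 (an interferon-induced chemokine), Pan2 (a deadenylase subunit), Birc3 (a ubiquitin ligase of the NF-kB pathway), Tnip3 (a partner of A20), 1600002D24Rik, Tnfaip2, Tnf and Cd302 (a lectin receptor) followed with means of 969 to 851 tags. The lowest were Kif18b, Vmn1r233, Trmt2b, Lipg and Gm20257 with 12.5 to 11.1 tags.

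**Figure D2:**
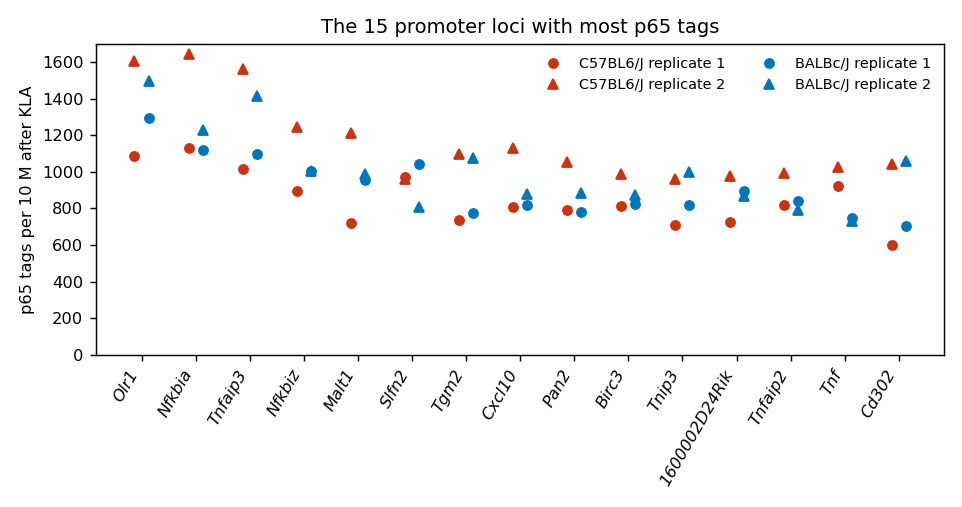
p65 tags per 10 M after KLA (y axis) at the 15 promoter loci with the highest mean, for each of the 4 lists: red C57BL6/J, blue BALBc/J, circles replicate 1 and triangles replicate 2. Olr1, Nfkbia and Tnfaip3 exceed 1000 tags in every list, and the strains overlap at each of these 3 loci.

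Just inside the limit of 1 kb were loci of H2-Eb1 and Bcl2l1 (999 bp; means of 100 and 50.8 tags) and of Hps6 (998.5 bp; 122 tags). Just outside it were loci near Eogt, Mcart1 and Musk (1000.5 bp; 26.7, 410 and 76.7 tags). Of 11217 merged loci near a start, 4625 (41.2%) had a peak in all 4 lists. Those in 3 lists had a median of 29.7 tags and those in 1 list a median of 19.0.

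Promoter p65 loci lay in marked chromatin more often than distal ones. An H3K27Ac region overlapped 85.1% ± 1.40 of promoter loci and 43.9% of distal loci (mean of the 4 libraries, SD), and the difference was 41.2 ± 0.965 percentage points (SD over 4 libraries). H3K4me2 overlapped 92.4% ± 0.315 of promoter loci and 61.8% of distal loci, a difference of 30.6 ± 1.45 points. A PU.1 peak overlapped 62.7% ± 4.49 of promoter loci and 53.6% of distal loci, a difference of 9.11 ± 2.54 points. All 3 differences had one sign in 4 of 4 libraries, and the exact sign-flip permutation test gave p = 0.125 each (two-sided; 0.167 adjusted over the 4 factors by Benjamini-Hochberg), the smallest p that 4 libraries allow. C/EBPa overlapped 52.1% ± 4.77 of promoter loci and 54.4% of distal loci, and here the sign depended on treatment. After KLA the share averaged 56.0% of promoter loci and 63.3% of distal loci, whereas without treatment it averaged 48.2% of promoter loci and 45.6% of distal loci (exact p = 0.50 for the difference of -2.30 ± 5.77 points).

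**Figure D3:**
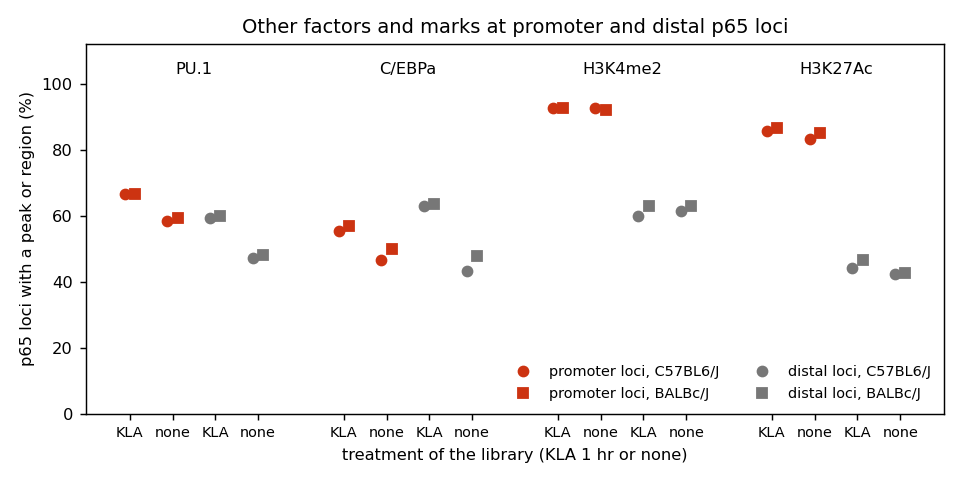
Share of p65 loci (y axis, %) that overlap a PU.1 or C/EBPa peak or an H3K4me2 or H3K27Ac region, in promoter (red) and distal (grey) loci, for libraries after KLA and without treatment; circles are C57BL6/J and squares BALBc/J. Promoter loci are higher for both marks in every library, and for C/EBPa they are lower after KLA and higher without treatment.

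Before the stimulus, 1266 promoter loci (27.4%) held both PU.1 and C/EBPa in both strains, 719 held PU.1 alone, 391 C/EBPa alone and 1059 (22.9%) neither, against 34.4% of distal loci with neither. The remaining 1190 differed between the strains. A PU.1 peak was listed after KLA and not without treatment in both strains at 237 promoter loci (5.12%; 7.71% of distal loci), a C/EBPa peak at 329 (7.11%; 12.7% of distal loci) and an H3K27Ac region at 129 (2.79%; 7.04% of distal loci). The opposite was seen for PU.1 at 23 promoter loci (0.497%) and 190 distal loci, for C/EBPa at 95 (2.05%; 1.05% of distal loci) and for H3K27Ac at 72 (1.56%; 4.73% of distal loci). Gains of the 3 were smaller shares of promoter loci than of distal loci, and the loss of C/EBPa was a larger share. These differences were not tested.

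Where a factor was listed in all 4 of its libraries, its tags were compared between KLA and no treatment with limma on log2(tags + 1), and a locus was called at an adjusted p (Benjamini-Hochberg, all merged peaks of the factor) under 0.05 together with a log2 change of 1 or more. PU.1 tags rose at 82 of 2347 tested promoter loci (3.49%; 3.18% of all PU.1 peaks) and fell at 8 (0.341%; 4.41% of all). C/EBPa tags rose at 113 of 1594 (7.09%; 6.83% of all C/EBPa peaks) and fell at 22 (1.38%; 8.38% of all). The share that rose was thus near the background, and the share that fell was below it; neither comparison with the background was tested. Under centring on the median of all peaks the PU.1 counts were 107 higher and 5 lower, and the C/EBPa counts 134 and 16.

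The largest PU.1 rise was at St7, which held 211 tags after KLA against 31.8 without treatment in C57BL6/J, and 214 against 27.6 in BALBc/J. 1600002D24Rik (log2 change 2.30 ± 0.28, SE), Foxp4 (2.06 ± 0.22) and Wdr48 (1.92 ± 0.22) came next among named genes with Gdpd3 (1.93 ± 0.31). PU.1 fell most at 1810011H11Rik (-1.38 ± 0.23) and Clec4b1 (-1.34 ± 0.27), and at Hpgds, the hematopoietic prostaglandin D synthase gene, it was at 107 after KLA against 220 without treatment in C57BL6/J and at 103 against 245 in BALBc/J. C/EBPa rose most at Mt2, a metallothionein gene, with 191 tags after KLA against 16.0 without treatment in C57BL6/J and 175 against 26.3 in BALBc/J. It also rose at 9030617O03Rik (3.04 ± 0.23) and at Tnf (2.97 ± 0.22), and fell most at Hmha1 (-1.60 ± 0.24) and Mgat4b (-1.57 ± 0.32).

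H3K27Ac changed at more promoter loci than the factors did, and more often downwards. Tags of a mark were summed over the whole merged region that overlaps the locus. This holds for every change of a mark at a locus given here, unless it is given per kb. Of 3838 promoter loci in tested regions (3387 distinct regions), 263 rose (6.85%; 7.04% of all regions) and 495 fell (12.9%; 22.2% of all). The median change was -0.16 at promoter loci and -0.38 over all regions, and with libraries centred on their medians 543 rose and 256 fell, so the split between the directions depends on the scaling. With tags per kb of listed region, 59 rose and 234 fell. H3K4me2 changed at 4 of 4401 loci: it rose at 2 (0.0454%; 0.0201% of all regions), at Irg1, the itaconate-producing enzyme gene, and Olr1, and fell at 2 (0.0454%; 0.0268% of all), at the second locus of Nfkbiz and at Gp49a.

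By summed tags, which also follow the length of the listed region, the largest rise was at Ehd1, an endocytic recycling gene, where the regions at the locus summed to 2256 tags after KLA against 29.4 without treatment in C57BL6/J, and to 2170 against 91.7 in BALBc/J. The listed region was also longer, 12648 bp after KLA against 1133 bp without treatment in C57BL6/J, and per kb the change was 2.04 ± 0.30 in place of 5.38 ± 0.37 on the log2 scale. At Ccl5, a chemokine gene, it held 3190 tags after KLA against 163 in C57BL6/J without treatment, and 2673 against 63.8 in BALBc/J, and per kb the change was 1.45 ± 0.30. The largest fall by summed tags was at Apoe, the apolipoprotein E gene, to 20.5 tags after KLA against 1436 without treatment in C57BL6/J, and to 39.7 against 755 in BALBc/J. There the listed region measured 500 bp after KLA against 8751 bp in C57BL6/J and 1001 bp against 8505 bp in BALBc/J, and tags per kb were 41.0 against 164 in C57BL6/J and 39.7 against 88.8 in BALBc/J (-1.56 ± 0.31 per kb; -5.14 ± 0.43 by summed tags). Acetylation also fell at Fcgr1, the high-affinity IgG receptor gene (-3.72 ± 0.48 by summed tags; -1.98 ± 0.32 per kb), and at Irf8, a myeloid transcription factor gene (-3.24 ± 0.26; -1.87 ± 0.30 per kb). All 16 named H3K27Ac loci kept their direction per kb, and Fam43a was no longer called (0.95 ± 0.33). The values per kb at single loci were added after the data were seen.

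Genes with a promoter p65 locus made up most of the genes that rose at 1 hr, but not of those that fell. RNA-Seq tags rose after 1 hr of KLA in 146 of 3889 tested member genes (3.75%; 1.82% of all 10692 genes tested) and fell in 49 (1.26%; 1.43% of all). The members were 74.9% of the genes that rose at 1 hr and 32.0% of those that fell, while they were 36.4% of the genes tested, and 0.720% of the other tested genes rose. With no filter on low values limma called 1 member higher and 0 lower at 1 hr, while 146 and 51 passed an unadjusted p under 0.05 with the same size of change. The cause was not tested. The call was an adjusted p under 0.05 (limma, Benjamini-Hochberg over all genes tested) together with a fitted log2 change, in tags + 10, of 1 or more. At 4 hr 477 members rose (12.3%; 8.10% of all) and 744 fell (19.1%; 21.3% of all). In nascent RNA at 1 hr 241 of 3491 members rose (6.90%; 4.31% of all) and 456 fell (13.1%; 15.5% of all), and with no filter limma called 0 and 0 (232 and 347 at an unadjusted p under 0.05). With libraries centred on their medians the members split into 176 higher and 27 lower at 1 hr, 657 and 337 at 4 hr, and 361 and 200 in GRO-Seq. In the single strains, with no test, the members past the same fold change downwards were 63 in C57BL6/J and 102 in BALBc/J at 1 hr, and 730 in C57BL6/J and 275 in BALBc/J in GRO-Seq, so the counts of falls rest on both strains unequally. The medians of all genes tested were -0.21, -0.47 and -0.34 in these contrasts, and those of the members -0.17, -0.38 and -0.23.

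A member gene entered the RNA-Seq test when it reached 20 tags in at least 2 libraries, which 3889 of 4588 did, against 37.2% of other genes; 70 passed only through libraries after KLA and so had to differ. In GRO-Seq 81 of 3491 did. Tested members had a median of 307 untreated RNA-Seq tags and other tested genes 201. The part of this level in the counts was not tested.

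The share of genes that rose was higher where the promoter held more p65, which is given as a description with no test. From the quartile of loci with the least p65 to the one with the most, 0.452%, 1.33%, 2.24% and 10.2% of the tested genes rose at 1 hr, and 1.45%, 2.80%, 4.51% and 17.1% rose in GRO-Seq. At 4 hr these shares were 6.11%, 7.16%, 9.97% and 24.4%. The top quartile stood above the shares over all genes in each contrast, and the lowest 2 quartiles stood below them. The shares that fell at 4 hr ran the other way, 23.2%, 20.4%, 19.7% and 14.0%. Among the 100 genes with the most p65, 41 of 96 tested rose at 1 hr, 59 of 96 at 4 hr and 48 of 92 in GRO-Seq. By distance, 12.4% of genes rose at 4 hr for centres within 250 bp, 10.9% at 250 to 500 bp and 12.7% at 500 to 1000 bp. Of 3348 members tested in both assays, 2070 were called in none of the 3 contrasts. The matching share over all genes was not counted, so this number cannot be called particular to the members.

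**Figure D4:**
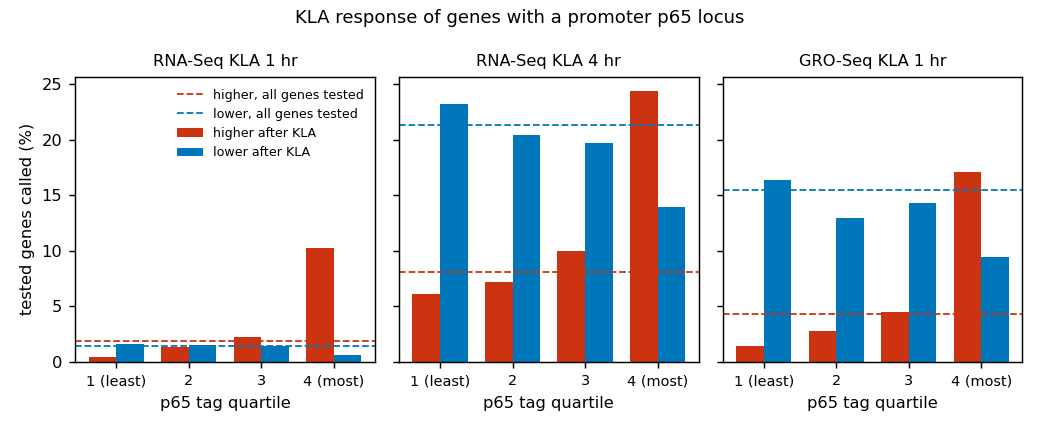
Share of tested member genes (y axis, %) called higher (red) or lower (blue) after KLA in the 3 contrasts, by quartile of mean p65 tags at the promoter locus (x axis); dashed lines are the shares over all genes tested. The red bars rise from quartile 1 to quartile 4, to 24.4% in RNA-Seq at 4 hr.

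The 15 promoters with the most p65 include genes that did not follow. Olr1 stood at 34.7, 1292 and 1968 RNA-Seq tags in C57BL6/J without treatment, after 1 hr and after 4 hr, and at 36.9, 1206 and 2813 in BALBc/J, a rise of 4.78 ± 0.20 at 1 hr (adjusted p = 8.6e-06). Cd302 stood at 998, 1213 and 1895 tags in C57BL6/J and at 949, 1266 and 1396 in BALBc/J and was called at neither time (0.35 ± 0.19 and 0.74 ± 0.19). Pan2 stood at 106, 74.5 and 13.3 tags in C57BL6/J and 102, 69.7 and 14.4 in BALBc/J, a fall of 2.26 ± 0.19 at 4 hr (limma adjusted p = 5.2e-05), although H3K27Ac tags at its locus rose by 2.41 on the log2 scale. 1600002D24Rik had no RNA-Seq tags in 5 of 6 libraries and was not tested.

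Most of the NF-kB genes listed carried a locus, and most of these rose. The list holds subunits, inhibitors, feedback and signalling genes, and also Icam1, Sod2, Ptgs2, Cd40 and Tnfaip2, which are none of these. Of 33 listed genes, 24 had a promoter p65 locus. Of these, 15 rose at 1 hr, 20 at 4 hr and 17 in GRO-Seq. Over all genes tested 1.82%, 8.10% and 4.31% rose in these contrasts. The median change of these 24 members was 1.68 at 1 hr and 2.54 at 4 hr. Of the 9 without such a locus, 3 rose at 1 hr, 5 at 4 hr and 3 in GRO-Seq. Nfkbia rose in nascent RNA to 1333 tags after KLA against 126 without treatment in C57BL6/J, and to 1543 against 118 in BALBc/J (3.45 ± 0.29; limma adjusted p = 1.2e-29). Tnfaip3 rose to 2622 against 360 in C57BL6/J and to 2333 against 330 in BALBc/J (2.81 ± 0.26). All 5 subunit genes had a promoter locus; they were singled out after their values were seen. Rela, the gene of p65, had 576 and 931 p65 tags in C57BL6/J and 564 and 882 in BALBc/J at a locus 769.5 bp upstream. Its RNA rose by 1.28 ± 0.19 at 4 hr (limma adjusted p = 0.00088) and had changed by 0.47 ± 0.19 at 1 hr without passing. Nfkb1, Nfkb2, Rel and Relb rose at 4 hr by 2.72 ± 0.18, 3.84 ± 0.19, 1.95 ± 0.20 and 2.17 ± 0.22. Nfkb1, the gene of the p50 precursor, rose in nascent RNA by 2.39 ± 0.31 when its polyadenylated RNA at 1 hr had changed by only -0.07 ± 0.18.

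Most cytokine and chemokine genes listed had a locus and rose. Of 38 listed genes 30 had a promoter p65 locus. Of these, 20 rose at 1 hr, 28 at 4 hr and 24 of 25 tested in GRO-Seq. Over all genes tested 1.82%, 8.10% and 4.31% rose in these contrasts. Of the tested genes listed without such a locus, 3 of 6 rose at 1 hr, 4 of 6 at 4 hr and 3 of 5 in GRO-Seq. The median change of these 30 members was 2.06 at 1 hr and 4.74 at 4 hr. In nascent RNA the interleukin 1 beta gene Il1b showed the largest change of all members (6.35 ± 0.33). It stood at 1133 tags after KLA against 5.84 without treatment in C57BL6/J, and at 1489 against 6.21 in BALBc/J. Both untreated values are under the filter of 20 tags. Il1b thus entered this test only through libraries after KLA and had to differ, and the 24 that rose in GRO-Seq include such genes. Tnf reached 3750 against 211 in C57BL6/J and 3498 against 165 in BALBc/J. Cxcl10 rose by 2.32 ± 0.26 at 1 hr and by 7.19 ± 0.26 at 4 hr. Tnfsf9, a ligand of the TNF family, has its p65 locus 780.5 bp upstream with a mean of 762 tags and rose by 4.86 ± 0.35 in GRO-Seq. Tnfsf9 too entered that test only through libraries after KLA, with 13.2 tags without treatment in C57BL6/J and 4.55 in BALBc/J.

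Most immediate early genes with a locus rose at 1 hr, and 4 of these 15 were also higher at 4 hr. Genes of this class respond within minutes to many stimuli. Of 36 listed, 22 had a promoter p65 locus, and 21 of these were tested. At 1 hr 15 rose (71.4%, against 1.82% of all genes tested). At 4 hr 5 rose (23.8%, against 8.10% of all genes tested) and 4 fell (21.3% of all genes tested fell). Their median was 2.36 at 1 hr and 0.06 at 4 hr. Without such a locus 9 of 14 rose at 1 hr. Ppp1r15a, a stress-induced phosphatase regulator, stood at 767, 7395 and 668 RNA-Seq tags in C57BL6/J without treatment, after 1 hr and after 4 hr, and at 711, 8736 and 890 in BALBc/J. Nr4a1, an orphan nuclear receptor, stood at 179, 2869 and 35.5 in C57BL6/J and at 248, 3819 and 19.6 in BALBc/J; it, Fos and Jun were chosen after their values were seen. Fos, an AP-1 subunit with only 26.4 to 41.9 p65 tags, rose by 3.93 ± 0.18 at 1 hr, while its nascent RNA at the same time was at 62.2 tags after KLA against 169 without treatment in C57BL6/J and at 82.1 against 159 in BALBc/J, a fall of 1.09 ± 0.34. Jun did likewise (1.26 ± 0.19 in RNA-Seq; -1.35 ± 0.32 in GRO-Seq). Over all members, 45 rose at 1 hr and were not higher at 4 hr, and 10 of these were lower at 4 hr. The matching shares over all genes were not counted.

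Interferon response genes rose mainly at 4 hr, both with and without a promoter p65 locus. Of 43 listed, 27 had one, and 26 of these were tested. At 1 hr 3 rose (11.5%, against 1.82% of all genes tested) and at 4 hr 24 rose (92.3%, against 8.10%). Of 16 tested without one 15 rose at 4 hr, and the medians at 4 hr were 4.16 with and 4.27 without a locus. Gbp2, a guanylate-binding protein gene, had p65 tags of 427 and 637 in C57BL6/J and 976 and 1181 in BALBc/J, with no overlap between the strains. Its RNA stood at 287, 458 and 14738 tags in C57BL6/J over the 3 times and at 274, 421 and 10882 in BALBc/J (0.63 ± 0.18 at 1 hr, not called; 5.45 ± 0.18 at 4 hr). In nascent RNA it had already risen by 2.03 ± 0.34. Gbp5, Gbp3, Isg15, Oasl1 and Irf1 rose at 4 hr by 7.42, 6.01, 5.92, 5.96 and 4.29. Across all members, 376 rose in RNA-Seq at 4 hr only and 85 rose in all 3 contrasts. Of the members higher at 4 hr but not at 1 hr, 100 were higher in GRO-Seq at 1 hr. Shares over all genes were not counted for these classes, so they cannot be called particular to the members.

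Some macrophage identity genes with a locus rose and some fell. Of 26 macrophage identity genes 18 had a promoter p65 locus. Of these, 2 rose and 1 fell at 1 hr, and 4 rose and 3 fell at 4 hr. Those that rose were 11.1% and 22.2%, against 1.82% and 8.10% of all genes tested. Over all genes tested 1.43% fell at 1 hr and 21.3% at 4 hr, so the falls at 4 hr do not set these genes apart. Of the 8 without a locus, 0 rose at either time, and 0 fell at 1 hr and 2 at 4 hr. Emr1, which encodes the surface marker F4/80, had p65 tags of 535 and 583 in C57BL6/J and 441 and 515 in BALBc/J, and its RNA changed by -0.18 ± 0.18 and 0.25 ± 0.18 at the 2 times, which was not called. Abca1, a cholesterol exporter with a mean of 750 p65 tags, changed by -0.35 ± 0.22 and 0.29 ± 0.22 and was not called. Tlr2, a receptor for bacterial lipoproteins, was among those that rose, by 2.50 ± 0.18 and 5.26 ± 0.18. Of 30 translation genes 14 had a locus, and the 11 tested in RNA-Seq had median changes of 0.12 at 1 hr and -0.16 at 4 hr. Of 68 histone genes only 8 (11.8%) had one, and of 5 tested in GRO-Seq 3 fell. Of 18 histone genes tested there without a promoter p65 locus 16 fell, so the falls were not particular to the members. Over all genes tested 15.5% fell in GRO-Seq.

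The 10 genes with the largest falls at 4 hr had mean p65 tags of 22.6 to 130, around the median of 56.6 over all promoter loci. The first 5 were Fbxo32, a ubiquitin ligase gene known from muscle atrophy (-5.46 ± 0.17), the Myc antagonist Mnt (-4.15 ± 0.37), Eepd1, Fam83f and Lyl1, with mean p65 tags of 48.4, 87.5, 60.2, 42.6 and 22.6. Fbxo32 stood at 3222, 2082 and 60.7 RNA-Seq tags in C57BL6/J over the 3 times and at 4028, 2368 and 85.1 in BALBc/J, and its nascent RNA was at 8.41 tags after KLA against 379 without treatment in C57BL6/J and at 24.7 against 586 in BALBc/J. At 1 hr the largest falls were those of the zinc finger genes Zfp87 (-1.98 ± 0.19), Zfp748 (-1.95 ± 0.19) and Zkscan14 (-1.86 ± 0.20). Reads of such related genes may be shared, so single values are uncertain. Cebpa, which encodes one of the factors measured here, fell by 3.29 ± 0.20 at 4 hr, with H3K27Ac at its promoter locus down by 1.61; it was named after its values were seen.

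H3K27Ac over the region at the promoter locus and the transcript were called in the same direction far more often than in opposite ones. The classes rest on tags summed over the whole region, which follow its listed length and can reach far beyond the locus. Per kb fewer loci were called, 59 higher and 234 lower, and the comparison was not repeated with those calls. Where H3K27Ac had risen, 94 of 209 tested genes (45.0%) rose in GRO-Seq and 116 of 218 (53.2%) rose in RNA-Seq at 4 hr, while 5 fell at 4 hr. Where it had fallen, 184 of 395 (46.6%) fell in GRO-Seq and 229 of 432 (53.0%) fell at 4 hr, while 9 rose. Where it was not called, 248 of 2815 (8.81%) rose and 426 (15.1%) fell at 4 hr. Over all genes tested, 8.10% were higher and 21.3% lower at 4 hr, and 4.31% were higher and 15.5% lower in GRO-Seq. Ehd1 rose with its acetylation, by 2.87 ± 0.21 at 1 hr and 4.37 ± 0.21 at 4 hr. Fcgr1 went against it in RNA-Seq at 4 hr. Its nascent RNA was at 4.81 tags after KLA against 75.7 without treatment in C57BL6/J and at 4.70 against 50.7 in BALBc/J, a fall of 2.29 ± 0.29, whereas its RNA at 4 hr was 1.99 ± 0.17 higher. Apoe, where acetylation fell, changed by -0.39 ± 0.19 at 4 hr and was not called.

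**Figure D5:**
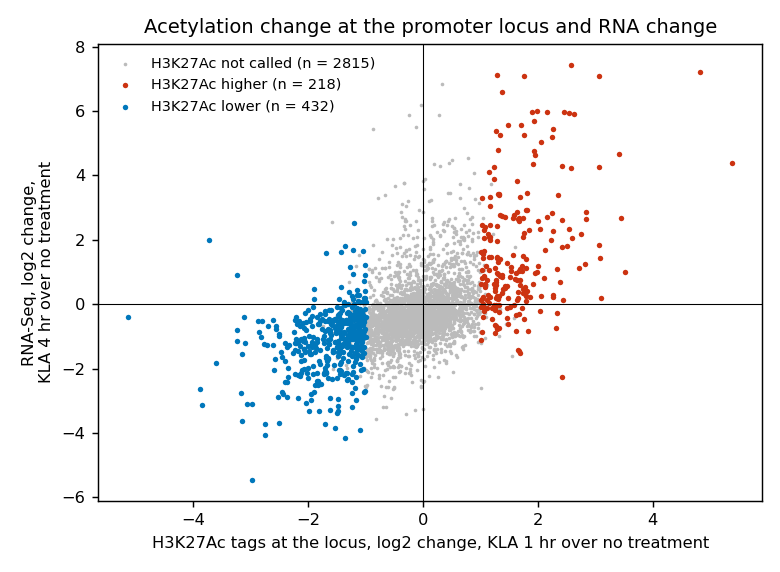
Each point is a member gene tested in both assays. The x axis is the log2 change after 1 hr of KLA of H3K27Ac tags summed over the whole region at its promoter locus. The y axis is the log2 change of RNA-Seq tags after 4 hr, and both are over no treatment. Red points are loci where H3K27Ac rose (218 genes) and blue points loci where it fell (432 genes); 53.2% of the red genes were called higher and 53.0% of the blue genes lower in RNA-Seq.

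The members were also split by the state before the stimulus, with no test of the difference. Of genes whose locus had no H3K27Ac region in either untreated library, 92 of 267 tested (34.5%) rose at 4 hr, against 333 of 3373 (9.87%) with a region in both. These genes were less often tested, 267 of 549 against 3373 of 3707, since many had few tags, and 42 and 17 of them passed the filter only through libraries after KLA, so their rise is partly set by the filter. Without these, an alternative added after the data were seen, 54 of 225 (24.0%) rose against 323 of 3356 (9.62%). In GRO-Seq the shares were 33 of 167 (19.8%) against 180 of 3144 (5.73%) with such genes and 9 of 141 (6.38%) against 165 of 3107 (5.31%) without them. Where neither PU.1 nor C/EBPa was listed before KLA, 138 of 770 (17.9%) rose at 4 hr, against 113 of 1142 (9.89%) where both were, and 114 of 742 (15.4%) against 104 of 1131 (9.20%) without the genes that passed only after KLA.

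At most p65 loci near 2 or more genes no gene rose. Rises were few among genes at large, 1.82% of all genes tested at 1 hr and 8.10% at 4 hr. The lack of a rise thus does not set these loci apart. At 292 loci with 2 or more genes tested in RNA-Seq, exactly 1 gene rose at 1 hr at each of 11 loci. At 4 hr at least 1 rose at 21 loci and 2 or more at 6, which were the loci of Cxcl16 and Zmynd15, Psme2 and Rnf31, Serpina3f and Serpina3g, Tap1 and Psmb9, Gm6034 with H2-T22 and H2-T9, and Parp9 and Dtx3l. The Serpina3 and H2-T genes are close relatives whose reads may be shared. At the locus of Nfkbib, the gene of IkB beta, and Sirt2, a deacetylase gene, Nfkbib rose by 1.62 ± 0.20 at 1 hr and Sirt2 changed by -0.04 ± 0.18; this pair was chosen after its values were seen. The sources used here do not state if exon tags were strand-specific.

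Among promoter loci with a peak in all 4 lists, p65 differed clearly between the strains at few. The rule leaves out promoters with p65 listed in 1 strain only, so the counts below do not cover them. The C57BL6/J lists also ran higher, with promoter medians of 59.8 and 68.7 tags against 49.0 and 45.1 in BALBc/J. The part of this in the split below was not tested. At 48 loci (1.04%; 1.93% of all loci in 4 lists) both C57BL6/J lists held at least 2-fold the tags of both BALBc/J lists, and at 4 loci (0.0865%; 0.714% of all) the reverse held. Of the 48 genes at the C57BL6/J-high loci, 38 were tested in RNA-Seq for the strain difference (C57BL6/J minus BALBc/J over the 3 times). Of these, 10 were higher in C57BL6/J by limma (26.3%, against 1.19% of all genes tested). The median difference of the 38 was only 0.10, against -0.08 over all genes tested. The treatments, with 1 library each per strain, serve as the replicates of every strain contrast. Its SE and p-values therefore do not measure the spread among animals of a strain. Over all 3889 tested members 47 were higher (1.21%) and 60 lower (1.54%; 2.52% of all), or 59 and 46 with libraries centred on their medians and 0 and 0 with no filter on low values (40 and 56 at an unadjusted p under 0.05). In GRO-Seq 5 of these 48 genes, of 35 tested, were higher (14.3%; 0.417% of all), and over all tested members 14 were higher (0.401%; 0.417% of all) and 9 lower (0.258%; 0.494% of all), or 34 and 5 with libraries centred on their medians.

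The complement genes C1qa, C1qb and C1qc, neighbours on chromosome 4 that encode the chains of C1q, were among these 10, all of which were named after their values were seen. The C1qb locus held p65 tags of 175 and 168 in C57BL6/J against 23.0 and 11.3 in BALBc/J. Its PU.1 tags were 259 after KLA and 241 without treatment in C57BL6/J, against 46.0 and 87.3 in BALBc/J, and an H3K27Ac region was listed only in C57BL6/J. C1qb RNA stood at 6448, 6598 and 6858 tags in C57BL6/J over the 3 times and at 598, 781 and 406 in BALBc/J, with no overlap (3.51 ± 0.19; limma adjusted p = 7.2e-05). C1qc and C1qa were higher by 2.76 ± 0.16 and 2.09 ± 0.17. Alas1, the first enzyme of heme synthesis, had p65 tags of 228 and 252 in C57BL6/J against 79.0 and 71.7 in BALBc/J, and RNA higher by 2.68 ± 0.27. Plekhg1 (3.13 ± 0.22), Fblim1, the lipoprotein lipase gene Lpl (1.44 ± 0.12), Repin1, Ppap2a and Pkmyt1 were the others; Repin1 has a second locus with more p65. Of the 4 genes at BALBc/J-high loci, 1 was lower in C57BL6/J. This was Cacna1a, a calcium channel gene, with 20.2 and 22.1 p65 tags in C57BL6/J against 71.0 and 109 in BALBc/J and an RNA difference of -2.22 ± 0.20 (limma adjusted p = 0.00073). Telo2 had 23.0 and 20.5 p65 tags in C57BL6/J against 228 and 210 in BALBc/J, the largest gap in favour of BALBc/J, and its RNA differed by -0.49 ± 0.18, which was not called. Conversely Hal, the histidine ammonia-lyase gene, had the largest RNA difference of the members (-4.94 ± 0.26), while its p65 tags were 191 and 175 in C57BL6/J and 278 and 166 in BALBc/J and overlapped.

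Sequence patterns were counted on both strands of the RefSeq windows of the members, with overlaps allowed. These windows reach only 250 bases before the start and 50 from it. Of the loci, 746 were centred 250 to 500 bp and 1337 were centred 500 to 1000 bp from a start. The shares thus describe the windows and not the DNA under the p65 loci. Windows were found for 3614 of 4588 genes (78.8%), and for 80.9% of the members outside chromosome 18, to which the counts refer. The κB pattern was present in 7.97% of member windows and 5.52% of all 27025 windows, and in 12.1% of the windows of the top p65 quartile. Of the 100 genes with the most p65 outside that chromosome 87 had a window, and 20 of these (23.0%) held it. The looser κB pattern was present in 68.6% of member windows and 50.4% of all, and a stricter one, GGGAA, any base and TTCC, in 0.969% and 0.355%. Member windows also had more G and C, a median of 60.7% against 52.7% over all windows, and the GC box GGGCGG was present in 64.6% against 35.9%; the part of base composition in the κB shares was not tested. The AP-1 pattern TGANTCA (N, any base) was present in 253 of 3613 member windows against 7.93% of all, and the C/EBP pattern TTGCNNAA in 9.16% against 10.8%, while the CRE pattern TGACGNCA was present in 6.45% against 3.37% and the PU.1 pattern GAGGAAG in 15.5% against 13.5%. Among members with a window, 23 of 249 tested genes with a κB match (9.24%) rose at 1 hr, against 90 of 2864 without (3.14%). At 4 hr 51 of 249 (20.5%) rose with a match and 312 of 2864 (10.9%) without. Members with a match also had more p65, a median of 77.2 tags against 58.5.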

How the data were processed

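Peak lists of PU.1, C/EBPa, p65, H3K4me2 and H3K27Ac and 1 expression table were used, for 30 of 40 samples; the other 10 were not analysed here. Reads were mapped with Bowtie 0.12.7 to mm9 and handled with HOMER, per the submitters' processing notes. Per the file headers, peaks were called in each sample against an input, and each peak's tag value is a signal (coverage by tags) scaled per 10 M tags. Those signal values are the authors'. Expression was deposited as log2 values of tags per 10 M in exons with a small random part, per the file headers, from which whole tags were recovered.

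Expression was fitted with limma 3.58.1 (R 4.3.3) on log2(tags + 10), with treatment and strain as terms, over genes with 20 tags in at least 2 libraries. ChIP tags were fitted on log2(tags + 1) over merged peaks listed in all 4 libraries. Calls needed a Benjamini-Hochberg adjusted p under 0.05 and a change of at least 1. Low counts make fold changes on these scales too small. The limma fit was also run on simulated independent counts with known changes, 1 fixed spread and no strain effect. These settings differ from the libraries used here, so that run cannot speak for the calls.

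The members, gene lists and tests were chosen with earlier results of these data known. Genes were named by rank: the 15 highest and 5 lowest loci by p65, the 10 largest rises and falls in each KLA contrast, the 6 largest strain differences each way, the 8 largest changes of each factor's tags each way and up to 6 per gene list by p65; others are marked as chosen later. The replicates of the p65 lists enter no test. Pseudocounts, filters, scalings, overlaps, stricter peaks and single lists left out were tried as alternatives. Promoter windows come from RefSeq (GRCm38.p6); their coordinates were not set against those of mm9.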

Additional observations from a re-analysis of the deposited data

How the results depend on the processing

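No paired analysis was possible because the p65 lists, which alone carry replicate numbers, give values that come from no test. The KLA fits hold strain as a term, which pairs their libraries by strain. Precision is limited by 1 library per strain and treatment, so the strains stand as replicates, and by tag depth at low genes. With p65 peaks of at least 30 tags 2884 loci were left, and without 1 list in turn there were 4753 to 5771. Under the alternatives 110 values stayed within 1.5 times the reported count or 1 SD of the reported share and 48 did not; the cause was not tested, except that fewer members enter with stricter peaks.

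Of member genes, the count that rose at 1 hr was 1 with no filter and 147 to 159 with a list or strain left out. The count that fell at 1 hr was 19 with a pseudocount of 50, 0 with no filter, 30 with a filter of 100 tags, 27 with centring, 26 with stricter peaks and 50 to 102 with a list or strain left out. At 4 hr, 447 fell with a pseudocount of 50, 385 with no filter, 337 with centring and 446 with stricter peaks, and 689 to 932 with a list or strain left out, while 478 to 529 rose. In GRO-Seq, 149 rose with a pseudocount of 50 and 0 with no filter, and 221 to 287 with a list or strain left out. There 120 fell with a pseudocount of 50, 0 with no filter, 174 with a filter of 100 tags, 200 with centring, 273 with stricter peaks and 275 to 730 with a list or strain left out. The strain difference gave 27 higher and 30 lower genes with a pseudocount of 50, 0 and 0 with no filter, 36 lower with stricter peaks, and 47 to 54 higher and 61 to 70 lower with a list left out. All these counts are from limma, apart from those of 1 strain alone, which have no test.

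The share of loci with PU.1 was 52.0% with peak centres within 100 bp and 67.8% within 500 bp, and that with C/EBPa 45.0% within 100 bp and 57.6% with stricter peaks. That with H3K4me2 was 89.5% where most of the locus had to be covered, 93.9% within 500 bp and 93.6% with stricter peaks, and that with H3K27Ac 81.3%, 86.8% and 89.2% in the same order. PU.1 fell at 4 loci with a pseudocount of 10 and 5 with centring, and C/EBPa at 14 with a pseudocount of 10. H3K4me2 rose at 5 loci with a pseudocount of 10 and, per kb of region, rose at 0 and fell at 1. H3K27Ac rose at 543 and fell at 256 with centring, and rose at 59 and fell at 234 per kb. The κB share was 68.6% with the looser κB pattern and 0.969% with the stricter one.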
